A study of Mus musculus with 40 samples.

Results

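The livers of all 40 mice of the study were compared by the genotype of the growth hormone receptor gene Ghr, 20 homozygous for the d3 allele, which lacks exon 3, against 20 wild-type (WT). The strain was C57BL/6NJ throughout. Both genotypes came in males and females, fed ad libitum (AL) or given a 40% calorie-restricted (CR) chow after weaning, with 5 livers in each of the 8 groups. The 4 combinations of sex and diet are called strata here: AL males, CR males, AL females and CR females. In each stratum the d3 mean was compared with the WT mean on the log2(normalized value + 1) scale, and the shared genotype difference of a gene is the mean of those 4 differences. All 40 livers and 13776 genes with a mean normalized value of 10 or more over the 40 livers entered the comparison. The d3 line was propagated from frozen sperm of d3/d3 males by fertilization of C57BL/6NJ oocytes. The labels do not say whether the WT mice were littermates. The labels put the age at death at about 2 months in one field and at 28 to 34 days in another. Recovered depth was 21132490 to 44195300 reads per library. Each library is a separate mouse. Sample titles carry running numbers whose meaning the labels do not give. In CR males these ran from 41 to 86 for WT and from 87 to 150 for d3. Genotype and running number therefore cannot be told apart in CR males. The ranges overlapped in the other strata, but in AL males through 1 d3 liver only. The AL males were numbered 13, 14, 26, 38 and 51 for WT and 8, 63, 64, 65 and 77 for d3. Genotype and running number are therefore hard to tell apart in AL males too.

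Growth hormone acts on hepatocytes through a dimer of its receptor. The receptor activates the kinase JAK2, which phosphorylates STAT5, and STAT5 drives genes such as Igf1, the main source of circulating IGF-1, and Socs2 and Cish, feedback inhibitors of the same pathway. In rodents the pulsatile pattern of the hormone in males and the steadier pattern in females set much of the sex-biased gene expression of the liver. The human d3 receptor is a common form that lacks the residues encoded by exon 3, which lie in the extracellular part of the protein.

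The sequence that the d3 allele lacks is short. In GENCODE M21 on GRCm38, exon 3 of the principal Ghr transcript lies at chr15:3388648-3388713 on the minus strand. It has 66 bases, all coding, or 22 codons with 0 bases left over, and it is held by 5 of the 5 Ghr transcripts with a coding sequence. It is printed 5′ to 3′ in transcript orientation as the site of the allele compared, with exon 3 in capitals and the adjoining 20 bases of exons 2 and 4 in lower case. The labels do not give the boundaries of the engineered deletion.
Ghr exon 3: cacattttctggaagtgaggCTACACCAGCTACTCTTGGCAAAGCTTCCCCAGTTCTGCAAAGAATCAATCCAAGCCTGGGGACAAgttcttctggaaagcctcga

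No gene passed the test for the shared genotype difference. With limma and Benjamini-Hochberg adjustment, 0 of 13776 genes (0%) had an adjusted p under 0.05, and the smallest adjusted p was 0.62. At an unadjusted p under 0.05 there were 967 genes, of which 489 were higher in d3 livers (3.55% of those tested) and 478 lower (3.47%). On the recovered reads edgeR also called 0 genes, with 1055 at an unadjusted p under 0.05, and DESeq2 called 13 (0.0944%). The genes named in the paragraphs that follow were therefore not called unless a sentence says so, and their values are given as measurements, each with its standard error (SE) and 95% interval. Over the 54 genes followed by name, limma's adjusted p ran from 0.62 to 0.911.

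The same 40 livers registered other differences by the same fit. The shared diet difference (CR minus AL) was called for 6301 genes (45.7%) and the shared sex difference (male minus female) for 3289 genes (23.9%). The median size of the shared difference over the 13776 genes was 0.07 for genotype, 0.15 for sex and 0.23 for diet, in log2 units. The precision of the genotype comparison bounds the shared difference of a gene, which is a mean over strata. It does not bound the difference within any stratum. The intervals are per gene and are not adjusted for the number of genes tested. The median half-width of the 95% interval was 0.19. For 12537 genes (91.0%) the interval lay within -1 and 1, and for 10245 genes (74.4%) within -0.5 and 0.5. Shared differences beyond 1 in size were measured for 347 genes, 334 of them above 1 and 13 below -1, and none of these was called.

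**Figure D1:**
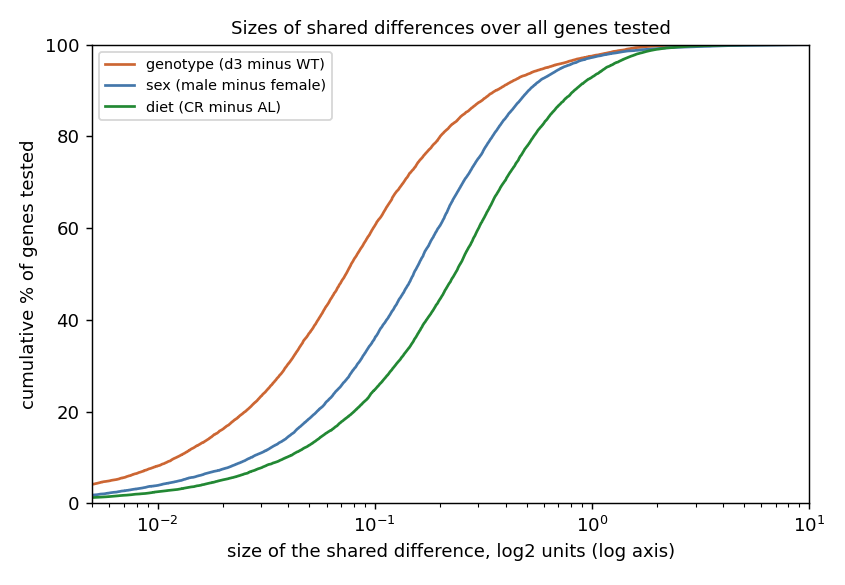
Cumulative percent of the 13776 genes tested (vertical axis) against the size of the shared difference in log2 units (horizontal log axis), for genotype, sex and diet. The genotype curve lies to the left of both others over most of its length, with medians of 0.07, 0.15 and 0.23 for genotype, sex and diet.

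The 4 stratum differences were alike for few genes. A gene had 1 sign in all 4 strata in 1208 cases on the higher side (8.77% of those tested) and in 860 on the lower side (6.24%). Across the 13776 genes, Pearson's r between the differences of 2 strata ran from 0.03 for AL against CR females to 0.44 for AL against CR males. Spearman's rho for the same pairs was -0.14 and 0.36. These are correlations across genes, which are not independent replicates, and no 2 strata share a liver. In the 22 livers low in adipocyte transcripts, described next, r ran from -0.19 to 0.08. That subset has only 1 or 2 d3 livers in each stratum, so its stratum differences are less precise. With all livers kept and the adipocyte level, also described next, as a covariate, r ran from -0.15 to 0.37. The lower value was for AL against CR females and the higher for CR males against AL females.

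Among the largest shared differences were those of genes of other tissues. Adipoq, the adipokine adiponectin, differed by 3.18 (SE 1.02, 95% interval 1.11 to 5.25). Cfd, the adipocyte protease adipsin, differed by 3.47 (SE 1.15, 95% interval 1.13 to 5.81). Cyp11b1, which makes corticosterone in the adrenal cortex, differed by 3.18 (SE 1.20, 95% interval 0.74 to 5.62), and Nr5a1, the steroidogenic transcription factor SF-1, by 2.74 (SE 0.98, 95% interval 0.75 to 4.72). None of the 4 was called by limma, where each had an adjusted p of 0.701, and the last pair was chosen after the values were seen.

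Adipoq was high in a minority of WT livers and in most d3 livers. By normalized value, AL males had 3.52, 1.20, 5.64, 1.31 and 303 among the WT livers and 224, 4.71, 117, 378 and 0 among the d3 livers. The WT CR males had 0, 0, 938, 3.06 and 1.17, and the d3 CR males 0, 298, 1143, 800.1 and 303. Among AL females, 0, 6.68, 1.00, 0 and 112 were measured for WT and 5.94, 6.39, 47, 54.6 and 276 for d3, and in CR females it was 6.86, 1.95, 672, 3.62 and 2.41 in the WT livers and 262, 2151, 11.6, 11.2 and 143 in the d3 livers. In each stratum 1 WT liver stood far above the other 4, while 3 or 4 of the 5 d3 livers were high. The adipocyte level of a liver, the mean log2 value of 8 adipocyte markers, was 2.26 to 9.68 with a median of 3.16 in WT livers and 2.41 to 10.27 with a median of 6.74 in d3 livers. It was 4 or more in 4 of 20 WT livers, 1 per stratum, and in 14 of 20 d3 livers. Of the 8 markers, 6 were higher in d3 livers at an unadjusted p under 0.05 and 0 lower, with a median shared difference of 2.26, against a median of -0.0033 over all genes tested.

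The skeletal muscle markers had a mean log2 level of 2.12 to 13.85 with a median of 3.31 in WT livers and 1.74 to 15.84 with a median of 7.43 in d3 livers. The level was 8 or more in 7 WT and 10 d3 livers. Their median shared difference was 1.77 over 19 markers, of which 0 passed an unadjusted p of 0.05. The adrenal gland genes, an 11-gene list added after the data were seen, had a mean log2 level of 1.10 to 10.86 with a median of 1.57 in WT livers and 1.28 to 12.52 with a median of 2.69 in d3 livers. The level was 5 or more in 2 WT and 6 d3 livers, and 4 of these 6 were CR males. For Cyp11b1, the CR males had normalized values of 4.06, 1.76, 6174, 4.08 and 5.83 among the WT livers and 7.57, 5993, 13377, 8001 and 8857 among the d3 livers. The other d3 CR male and 4 of the 5 WT CR males were below 10 for this gene. All 8 livers with a high adrenal level also had an adipocyte level of 4 or more. None of the 3 levels was high in 13 WT and 6 d3 livers.

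**Figure D2:**
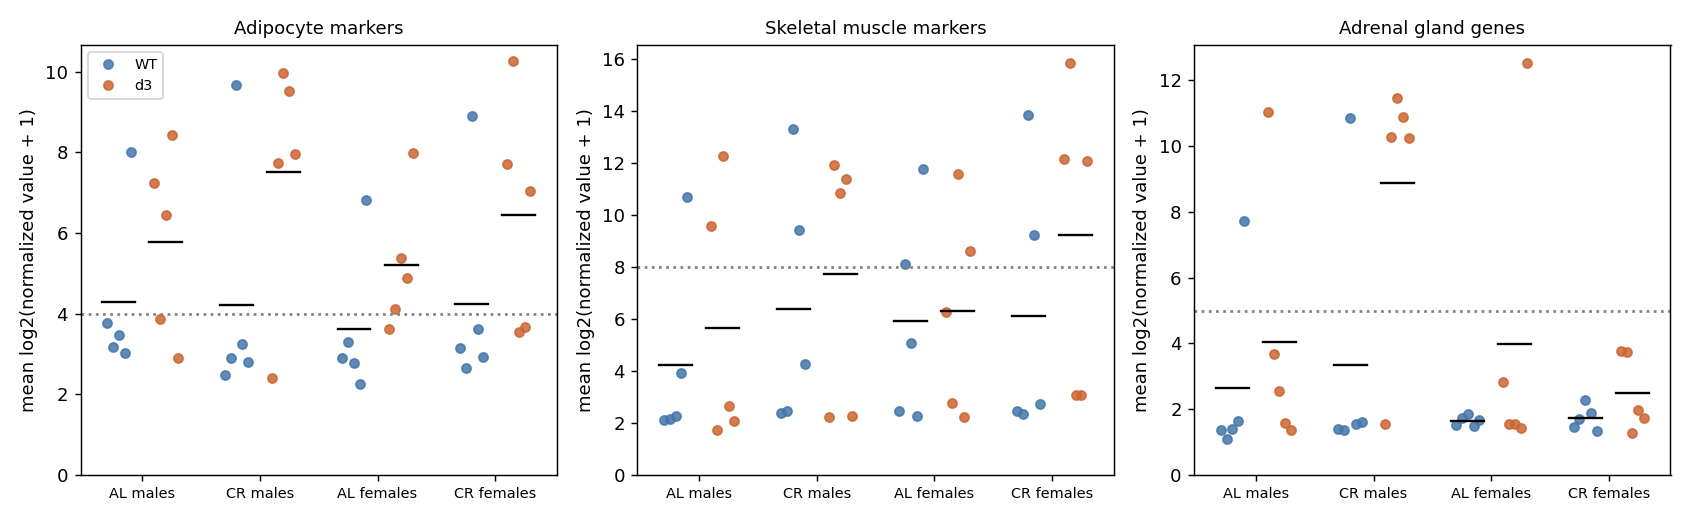
Mean log2(normalized value + 1) of the adipocyte markers, skeletal muscle markers and adrenal gland genes in each of the 40 livers (points), by stratum and genotype, with the group mean as a bar and the limits of 4, 8 and 5 dotted. Adipocyte levels of 4 or more were found in 4 of 20 WT and 14 of 20 d3 livers, and adrenal levels of 5 or more in 2 and 6.

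More d3 than WT livers had a high adipocyte level in each stratum, while 4 of the 6 d3 livers with a high adrenal level were CR males and 0 CR females of either genotype had one. No gene of these 3 lists was called by limma in the 40 livers. The part of these transcripts in the differences of liver genes was not tested, and values in the livers with an adipocyte level under 4 are given for most of the genes and lists named below, but not for the neighbours of Ghr and the genes of the test between strata. That subset holds 16 WT livers, 4 in each stratum, and 6 d3 livers, with 2 AL males, 1 CR male, 1 AL female and 2 CR females, and where a group has 1 liver its spread is assumed to equal that of the others. In this subset 0 genes were called for the shared genotype difference. The hepatocyte markers, such as Apoa1, the main protein of HDL, were high in every liver. Their mean log2 level was 16.47 to 17.94 with a median of 17.50 in WT livers and 16.42 to 17.69 with a median of 17.38 in d3 livers. Of 12 markers, 0 were higher and 3 lower in d3 livers at an unadjusted p under 0.05, and the median shared difference was -0.08, or 0.06 in the livers low in adipocyte transcripts. In bulk tissue, fewer cells of a type and less RNA per cell cannot be told apart.

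Ghr itself (ENSMUSG00000055737, chr15:3317760-3583492, minus strand) was lower in d3 livers in each stratum, though not past the test. Its normalized values follow. The WT AL males had 14328, 14119.5, 19536, 18856 and 12223, and the d3 AL males 13925, 16387, 12979, 17207 and 10204. Among CR males, 16772, 17438, 14673, 20904 and 15634 were measured for WT and 13784, 11173, 13129.7, 11005 and 14652 for d3. In AL females it was 7040.2, 14071, 12904, 13999 and 15699 in the WT livers and 14173, 10218, 14103, 14078 and 5592 in the d3 livers, and CR females had 12379.7, 13642, 8956, 13180.2 and 12244 among the WT livers and 12598, 10347, 14533, 12138 and 8761 among the d3 livers. The groups did not overlap in CR males and overlapped in the other 3 strata. The shared difference was -0.20 (SE 0.11, 95% interval -0.41 to 0.01), with an adjusted p of 0.714 by limma, and in the livers low in adipocyte transcripts it was -0.09. A value for the whole gene does not check the loss of exon 3.

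**Figure D3:**
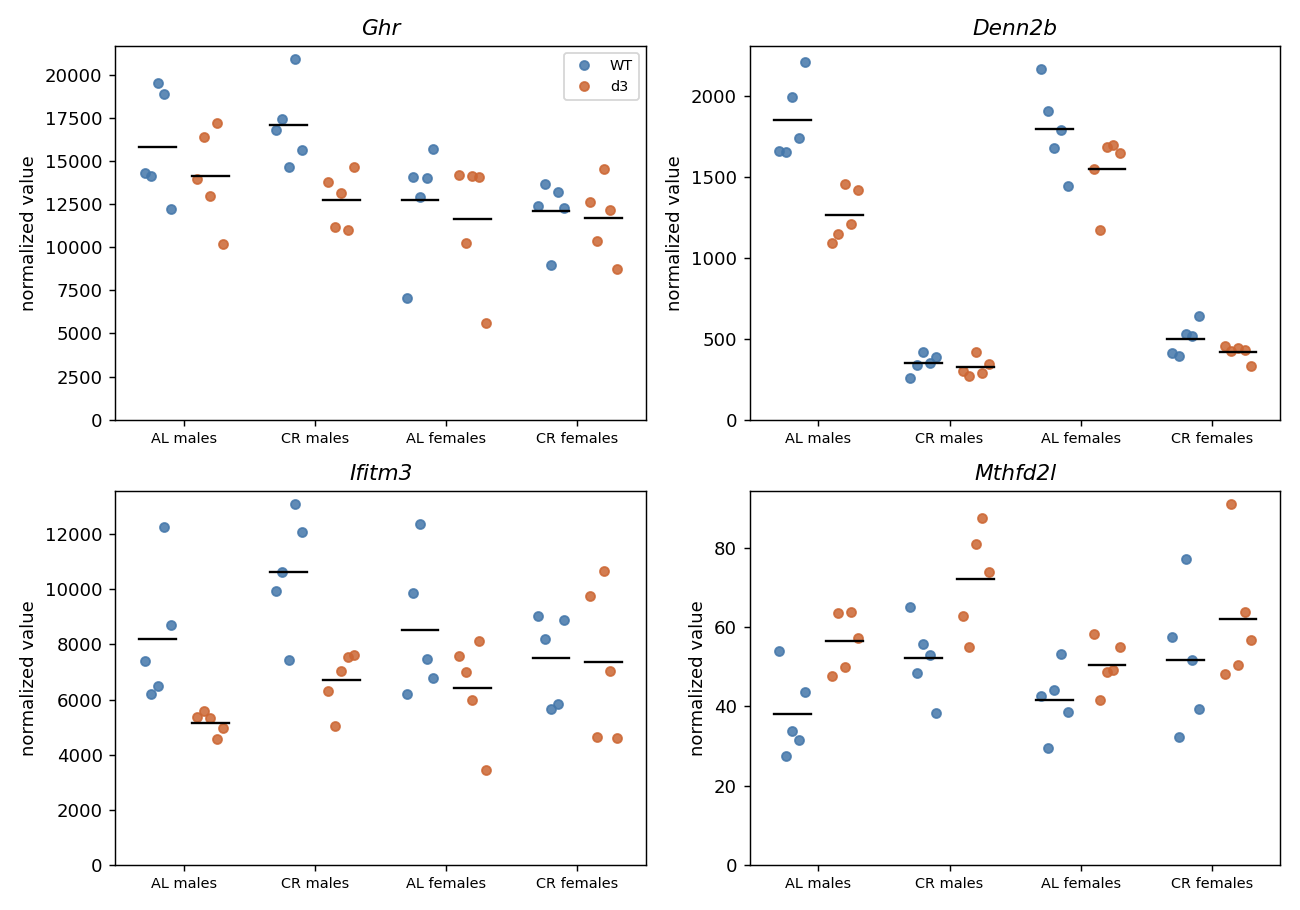
Normalized value of Ghr, Denn2b, Ifitm3 and Mthfd2l in each of the 40 livers (points), by stratum and genotype, with the group mean as a bar and a linear axis from 0. The d3 points lie wholly below the WT points for Ghr in CR males and for Denn2b and Ifitm3 in AL males, and the groups overlap elsewhere.

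Downstream of the receptor the shared differences were small or imprecise. Jak2, the receptor's kinase, differed by 0.05 (SE 0.08, 95% interval -0.11 to 0.21) and Stat5b, the main STAT of the pathway, by 0.05 (SE 0.07, 95% interval -0.10 to 0.20). Both intervals lie within -0.5 and 0.5, and in the livers low in adipocyte transcripts the differences were 0.0056 and 0.08. Igf1 was 8788 to 27119 with a median of 16214 in the 20 WT livers, and 8104 to 26872 with a median of 13608 in the 20 d3 livers. Its shared difference was -0.16 (SE 0.10, 95% interval -0.36 to 0.04), so that a decrease down to the lower bound of that interval lies within the measured error. It was -0.17 in the livers low in adipocyte transcripts. The feedback inhibitors varied more between livers. Socs2 was 135 to 1833 with a median of 529 in the 20 WT livers, and 110.0 to 1557 with a median of 522 in the 20 d3 livers, and differed by -0.39 (SE 0.31, 95% interval -1.02 to 0.24). Cish differed by -0.22 (SE 0.42, 95% interval -1.06 to 0.63), and its stratum differences were -0.67 in AL males, -0.50 in CR males, 0.90 in AL females and -0.60 in CR females. Socs2 differed by -1.09 and Cish by -1.02 in the livers low in adipocyte transcripts. These 5 genes were named outside the ranking, as members of the pathway.

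Among 24 measured genes of growth hormone signalling, 0 were higher and 1 lower in d3 livers at an unadjusted p under 0.05, and the median shared difference was -0.04, as in the livers low in adipocyte transcripts. Stat3, another STAT used by cytokine receptors, had the smallest p, with a difference of -0.20 (SE 0.09, 95% interval -0.39 to -0.02) and -0.08 in the livers low in adipocyte transcripts. In AL males Stat3 was 4168, 3700, 3592, 10149 and 8193 in the WT livers and 3641, 5030, 3857, 3597 and 3770 in the d3 livers. The highest values are those of WT replicates 4 and 5, which also stood apart for acute phase proteins, described below. The groups overlapped for Stat3 in all 4 strata. Ptpn6, a phosphatase that dampens JAK signalling, differed by -0.15 (SE 0.07, 95% interval -0.30 to 0.00097), with -0.22 in AL males, -0.12 in CR males, -0.14 in AL females and -0.13 in CR females, and -0.10 in the livers low in adipocyte transcripts. Of 13 genes of the IGF axis, 1 was higher and 0 lower in d3 livers at an unadjusted p under 0.05, and the median was -0.01, or 0.02 in the livers low in adipocyte transcripts. Igf1r, the IGF-1 receptor, is low in hepatocytes. It was 80.8 to 753 with a median of 194 in the 20 WT livers, and 111 to 1075 with a median of 254 in the 20 d3 livers, a difference of 0.55 (SE 0.23, 95% interval 0.08 to 1.02) that was 0.22 in the livers low in adipocyte transcripts and 0.03 with the adipocyte level as a covariate. Igfbp5, an IGF-binding protein, differed by 0.82 (SE 0.42, 95% interval -0.04 to 1.68), by 0.50 in those livers and by -0.11 with that covariate.

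Ranked by p among genes with 1 sign in all 4 strata, the first 6 that were lower in d3 livers were Adh6-ps1, Denn2b, Olfr1034, Serpina12, Ifitm3 and Ces3b. The sign is part of how they were chosen and supports nothing. Each had an adjusted p of 0.62 by limma. Denn2b encodes a DENN-domain protein that activates Rab GTPases. The WT AL males had 1661, 1654, 1996, 1742 and 2213, and the d3 AL males 1094, 1146, 1456, 1209 and 1418, with every d3 liver below every WT liver. Among CR males, 257, 338, 415, 349.6 and 389 were measured for WT and 303, 271, 416, 285 and 346 for d3, and these overlapped. In AL females it was 2171, 1908, 1679.9, 1788 and 1442 in the WT livers and 1547, 1172, 1689, 1701 and 1648 in the d3 livers, and CR females had 409, 392, 531, 517 and 643 among the WT livers and 456, 425, 445, 431 and 332 among the d3 livers. Its shared difference was -0.28 (SE 0.07, 95% interval -0.42 to -0.13), beside a diet difference of -2.03. The value was -0.25 in the livers low in adipocyte transcripts and ran from -0.30 to -0.25 with each liver left out in turn.

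Adh6-ps1, by its name an alcohol dehydrogenase pseudogene (chr3:138374121-138395002), was 323 to 2978 with a median of 691 in the 20 WT livers, and 175 to 895 with a median of 425 in the 20 d3 livers. Its difference was -0.64 (SE 0.16, 95% interval -0.97 to -0.31), with -0.87 in AL males, -1.12 in CR males, -0.48 in AL females and -0.07 in CR females. In CR males the groups did not overlap, and in CR females they overlapped widely. A pseudogene can share reads with its functional relatives, so its level is uncertain. Serpina12, the secreted serpin vaspin, was 14.7 to 1186 with a median of 141 in the 20 WT livers, and 5.44 to 636 with a median of 60.7 in the 20 d3 livers. Its difference of -0.85 (SE 0.22, 95% interval -1.30 to -0.40) was the largest of the 6, with -0.59 in AL males, -1.52 in CR males, -1.003 in AL females and -0.28 in CR females. Ces3b, a carboxylesterase of liver lipid and drug metabolism, was 4934 to 29108 with a median of 12676 in the 20 WT livers, and 1943 to 19110.0 with a median of 7377 in the 20 d3 livers. It differed by -0.50 (SE 0.13, 95% interval -0.77 to -0.23), most in CR males at -1.20. Olfr1034, an olfactory receptor gene by its symbol, was 40.1 to 138 with a median of 80.7 in the 20 WT livers, and 26.5 to 112 with a median of 56.9 in the 20 d3 livers, and differed by -0.50 (SE 0.13, 95% interval -0.77 to -0.24). In the livers low in adipocyte transcripts the difference was -0.61 for Adh6-ps1, -0.76 for Serpina12, -0.54 for Ces3b and -0.49 for Olfr1034.

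On the higher side the first 6 were Mthfd2l, Cdkn1c, Rev1, Wwox, Osbpl5 and Arxes2, with adjusted p of 0.62 to 0.701 by limma. Mthfd2l encodes a mitochondrial enzyme of folate one-carbon metabolism. The WT AL males had 54, 27.6, 33.8, 31.5 and 43.6, and the d3 AL males 47.6, 63.6, 49.9, 63.9 and 57.2. Among CR males, 65, 48.4, 55.9, 53 and 38.5 were measured for WT and 62.7, 54.9, 81.1, 87.7 and 74 for d3. In AL females it was 42.6, 29.6, 44.1, 53.3 and 38.7 in the WT livers and 58.4, 41.5, 48.7, 49.1 and 55 in the d3 livers, and CR females had 57.5, 32.2, 77.3, 51.6 and 39.3 among the WT livers and 48.3, 91.2, 50.4, 63.9 and 56.7 among the d3 livers. The groups overlapped in all 4 strata. The shared difference was 0.41 (SE 0.11, 95% interval 0.19 to 0.62), and the stratum differences lay between 0.29 and 0.59. It was 0.48 in the livers low in adipocyte transcripts.

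Rev1, a translesion DNA polymerase, had the narrowest interval of the 12 ranked genes. It was 289.9 to 711 with a median of 513 in the 20 WT livers, and 367 to 776 with a median of 505 in the 20 d3 livers, and differed by 0.20 (SE 0.05, 95% interval 0.09 to 0.31). Those medians mix AL and CR livers, whereas the shared difference is taken within strata. In AL males the 5 d3 livers lay above the 5 WT livers for Rev1. Wwox, a WW-domain oxidoreductase, was 129 to 365 with a median of 239 in the 20 WT livers, and 232 to 425 with a median of 298 in the 20 d3 livers, and differed by 0.24 (SE 0.07, 95% interval 0.10 to 0.38). Osbpl5, an oxysterol-binding protein family member that moves lipids between membranes, was 57.7 to 463 with a median of 159.7 in the 20 WT livers, and 81.3 to 411 with a median of 199 in the 20 d3 livers. It differed by 0.38 (SE 0.11, 95% interval 0.16 to 0.61), with the groups apart in AL females alone, at 0.76, and by 0.20 with the adipocyte level and 0.25 with the adrenal level as a covariate. In the livers low in adipocyte transcripts the difference was 0.24 for Rev1, 0.34 for Wwox and 0.39 for Osbpl5.

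Cdkn1c, the cyclin-dependent kinase inhibitor p57, was higher in the livers with a high adrenal level than in the other livers of their own group, in each of the 5 groups that hold one. It was also high in a d3 CR female with no high adrenal level. The WT CR males had 142, 112, 288, 103 and 131, and the d3 CR males 165, 415, 617, 444 and 321, and the 4 highest d3 livers are the 4 with a high adrenal level. Among AL females, 54.7, 122, 161, 141 and 135 were measured for WT and 149.4, 124, 126.4, 138 and 800.5 for d3, the last of which also has a high adrenal level. In AL males it was 51.6, 44.4, 37.6, 52.4 and 95.5 in the WT livers and 196.7, 61.2, 107.4, 59.0 and 51.7 in the d3 livers, where 95.5 and 196.7 belong to the livers with a high adrenal level. The CR females had 200.7, 178.7, 297, 193.9 and 167.7 among the WT livers and 208, 538, 221.7, 237.9 and 257.8 among the d3 livers, and none of these 10 livers had a high adrenal level. The shared difference was 0.77 (SE 0.21, 95% interval 0.35 to 1.20), 0.40 in the livers with an adrenal level under 5 and 0.37 in those low in adipocyte transcripts. Arxes2, a gene of adipocytes, was 0 to 160.2 with a median of 3.43 in the 20 WT livers, and 2.20 to 243 with a median of 17.5 in the 20 d3 livers, and differed by 2.06 (SE 0.60, 95% interval 0.83 to 3.29), or 1.13 in the livers low in adipocyte transcripts and 0.49 with the adipocyte level as a covariate.

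**Figure D4:**
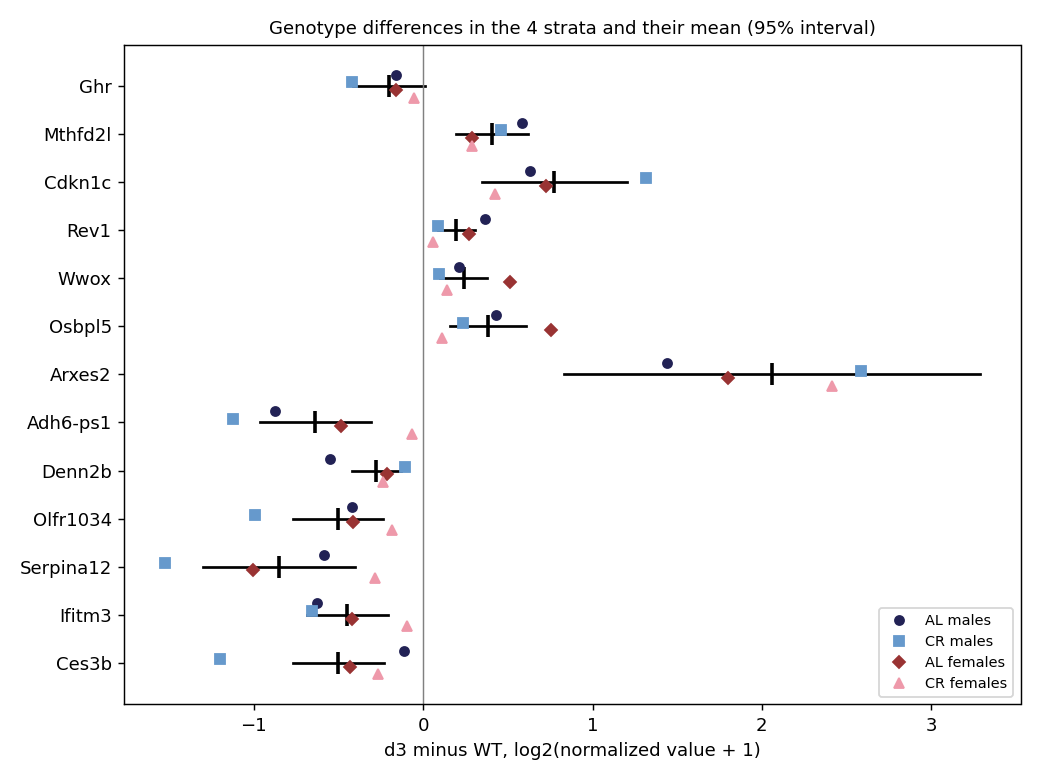
Genotype difference (d3 minus WT, log2 scale, horizontal axis) of Ghr and the 12 ranked genes in each stratum (symbols), with the shared difference (tick) and its 95% interval (line). The intervals are narrowest for Rev1 and Wwox and widest for Arxes2, and that of Ghr reaches 0.01.

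Foxa3, a forkhead transcription factor of hepatocytes, had the smallest p of all 13776 genes, though not 1 sign in all strata. In AL males it was 2697, 1814, 2024, 2789 and 2801 in the WT livers and 1573, 1192, 1757, 1755 and 1522 in the d3 livers, with every d3 liver below every WT liver. CR males had 1479, 1569, 1263, 1816 and 1683 among the WT livers and 1228, 1333, 526, 676 and 742 among the d3 livers. The WT AL females had 2059, 1975, 1416, 1239 and 2052, and the d3 AL females 1291, 1755, 1474, 1177 and 1446, and among CR females, 894, 1096, 724, 1078 and 1062 were measured for WT and 1132, 770.1, 1308, 1177 and 828 for d3. The order of the group means was reversed in CR females, where the difference was 0.09. The shared difference was -0.42 (SE 0.10, 95% interval -0.62 to -0.22), with an adjusted p of 0.62 by limma, and -0.31 in the livers low in adipocyte transcripts. Of 31 liver transcription factors, 0 were higher and 2 lower in d3 livers at an unadjusted p under 0.05, and their median was -0.05, or 3.6e-05 in the livers low in adipocyte transcripts.

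Insc, which orients the mitotic spindle and is male-biased in liver, ranked next, at -0.44 (SE 0.11, 95% interval -0.66 to -0.22), and at -0.39 in the livers low in adipocyte transcripts. Its stratum differences were -0.44 in AL males, -1.17 in CR males, -0.30 in AL females and 0.15 in CR females. Of the 32 male-biased genes measured, 0 were higher and 17 lower in d3 livers at an unadjusted p under 0.05, against 3.47% of all genes on the lower side, and their median shared difference was -0.38. That median came mostly from 1 stratum, with medians of -0.09 in AL males, -1.51 in CR males, 0.02 in AL females and 0.0039 in CR females. Over the other 3 strata alone it was -0.03. In the livers low in adipocyte transcripts it was -0.36 over 4 strata, of which CR males hold 1 d3 liver. In CR males every d3 running number is above every WT one, so genotype and running number cannot be told apart there. Of 44 female-biased genes, 5 were higher and 1 lower in d3 livers at an unadjusted p under 0.05, with a median of 0.12, and of -0.07 over the 3 strata other than CR males and 0.17 in the livers low in adipocyte transcripts. Cyp2a4, a female-biased cytochrome P450, differed by 0.60 (SE 0.23, 95% interval 0.14 to 1.06), with 0.09 in AL males, 2.47 in CR males, -0.49 in AL females and 0.32 in CR females, and 0.35 in the livers low in adipocyte transcripts.

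Interferon-induced genes had small shared differences, mostly below 0. These genes are switched on by interferons and act in antiviral defence and antigen presentation. Of 32 measured, 0 were higher and 9 lower in d3 livers at an unadjusted p under 0.05, 28.1% against 3.47% of all genes. The difference was below 0 in all 4 strata for 12, or 37.5% against 6.24%. The median shared difference was -0.20, with medians of -0.28 in AL males, -0.29 in CR males, -0.01 in AL females and -0.19 in CR females. It was -0.21 in the livers low in adipocyte transcripts. None was called, and the genes share regulators and cells, so the counts are not independent.

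Ifitm3, an interferon-induced transmembrane protein that blocks virus entry, led the list. In AL males it was 7392, 6205, 6487, 12250.3 and 8699 in the WT livers and 5379, 5573, 5326, 4566 and 4964 in the d3 livers, with every d3 liver below every WT liver. CR males had 9956, 10639, 7452, 13083 and 12075 among the WT livers and 6316, 5036, 7047, 7556 and 7623 among the d3 livers. The WT AL females had 6187, 9872, 12367, 7461 and 6768, and the d3 AL females 7585, 6991, 6003, 8131 and 3435, and among CR females, 9046, 8198, 5641, 5838 and 8892 were measured for WT and 9774, 4624, 10671, 7052 and 4613 for d3. The shared difference was -0.45 (SE 0.12, 95% interval -0.69 to -0.21), and -0.37 in the livers low in adipocyte transcripts. Oas1a, a sensor of double-stranded RNA, was 67.4 to 195 with a median of 112 in the 20 WT livers, and 33.4 to 203 with a median of 81.3 in the 20 d3 livers. It differed by -0.42 (SE 0.15, 95% interval -0.72 to -0.11), and by -0.52 in the livers low in adipocyte transcripts. Irgm1, an immunity-related GTPase induced by interferon gamma and named here outside the ranking, was 994 to 3557 with a median of 1976 in the 20 WT livers, and 1011 to 3278 with a median of 1622 in the 20 d3 livers, and differed by -0.28 (SE 0.08, 95% interval -0.43 to -0.12), or -0.30 in that subset.

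The promoters of these 3 genes are printed because their differences had 1 sign in all 4 strata and they are interferon-induced. They are from RefSeq on GRCm38.p6, 250 bases before to 50 after the start, 5′ to 3′ on the gene's strand. Capitals mark every match on either strand to GAAANNGAA, most of the core of the interferon-stimulated response element, and overlapping matches run together. The Ifitm3 window is chr7:141010695-141010994, the Irgm1 window chr11:48871371-48871670 and the Oas1a window chr5:120907476-120907775, all on the minus strand.
Ifitm3: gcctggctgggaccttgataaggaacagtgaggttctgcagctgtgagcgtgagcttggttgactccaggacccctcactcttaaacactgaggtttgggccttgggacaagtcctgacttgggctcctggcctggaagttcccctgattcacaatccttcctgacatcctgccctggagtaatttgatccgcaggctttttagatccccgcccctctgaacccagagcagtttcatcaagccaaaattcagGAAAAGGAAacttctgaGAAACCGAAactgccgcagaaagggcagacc
Irgm1: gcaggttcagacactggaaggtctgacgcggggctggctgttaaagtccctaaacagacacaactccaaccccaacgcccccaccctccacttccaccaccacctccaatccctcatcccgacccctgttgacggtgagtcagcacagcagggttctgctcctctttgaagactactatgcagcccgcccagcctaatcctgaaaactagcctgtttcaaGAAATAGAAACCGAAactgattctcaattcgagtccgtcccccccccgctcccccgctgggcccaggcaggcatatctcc
Oas1a: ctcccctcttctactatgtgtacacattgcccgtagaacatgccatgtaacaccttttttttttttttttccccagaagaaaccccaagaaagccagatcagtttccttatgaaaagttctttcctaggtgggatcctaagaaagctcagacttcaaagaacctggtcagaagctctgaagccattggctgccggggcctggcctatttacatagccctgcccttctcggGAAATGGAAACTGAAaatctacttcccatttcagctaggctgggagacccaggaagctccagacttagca
The windows hold 2, 2 and 2 matches in that order. A match was found for 16 of the 28 genes of the list with a promoter in the table and for 9.76% of all 27025 genes there. The STAT-binding letters TTCNNNGAA, also on either strand, were found for 7 of the 28 and for 9.55% of all genes. A match is a description of the letters and not of a bound factor.

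Acute phase proteins, which hepatocytes secrete in inflammation, had shared differences below 0 for all 24 genes measured, with stratum medians of -0.56 in AL males, -0.25 in CR males, -0.30 in AL females and 0.03 in CR females. A pair of WT AL males stood apart, replicates 4 and 5, with mean log2 levels of 16.07 and 14.55 beside a median of 12.74 in their group. Of 24 measured, 0 were higher and 5 lower in d3 livers at an unadjusted p under 0.05, 20.8% against 3.47% of all genes. The median was -0.27, but 0.00033 in the livers low in adipocyte transcripts. The 5 became 2 without either of that pair, where the median was -0.19 without replicate 4 and -0.24 without replicate 5. Without AL males 4 of the 24 were lower at an unadjusted p under 0.05, all 24 were below 0, and the median was -0.17. Crp, C-reactive protein, differed by -0.25 (SE 0.10, 95% interval -0.46 to -0.05) and by -0.06 in the subset low in adipocyte transcripts. Fgg, the fibrinogen gamma chain, was 60667 to 379004 with a median of 102889 in the 20 WT livers, and 55397 to 125329 with a median of 95438 in the 20 d3 livers, a difference of -0.31 (SE 0.13, 95% interval -0.57 to -0.04) and of -0.10 in the subset. Its WT AL males had 102648, 103129, 115276, 379004 and 261197, and its mean in CR females was 85191 for WT and 96023 for d3. Without AL males it differed by -0.17. Of 30 complement and coagulation genes, 1 was higher and 4 lower in d3 livers at an unadjusted p under 0.05, with a median of -0.10, or 0.04 in the livers low in adipocyte transcripts, and the 1 that was higher is the adipocyte gene Cfd.

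Clock genes had shared differences mostly above 0. Of 25 measured, 9 were higher and 1 lower in d3 livers at an unadjusted p under 0.05, against 3.55% and 3.47% of all genes, and the median was 0.15, with medians of 0.23 in AL males, 0.10 in CR males, 0.20 in AL females and -0.09 in CR females. Per3, a period protein, was 60.1 to 3331 with a median of 1188 in the 20 WT livers, and 99.9 to 3756 with a median of 1198 in the 20 d3 livers. These medians mix the diets, as Per3 was 60.1 to 453 in AL livers and 1944 to 3756 in CR livers. Per3 differed by 0.46 (SE 0.12, 95% interval 0.21 to 0.71), with 1.38 in AL males, 0.24 in CR males, 0.32 in AL females and -0.10 in CR females. Dbp, a rhythmic transcription factor of the clock output, differed by 0.82 (SE 0.25, 95% interval 0.31 to 1.33), with 2.77 in AL males, -0.17 in CR males, 0.62 in AL females and 0.07 in CR females. Per3 differed by 0.39 and Dbp by 0.34 in the livers low in adipocyte transcripts, where the list had a median of 0.12. Both genes rested mostly on AL males, with 0.15 for Per3 and 0.17 for Dbp without them, where 1 gene of the list was higher and 0 lower at an unadjusted p under 0.05. The labels name no hour of death.

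Chaperone genes had their lowest medians in AL males. Of 19 genes of endoplasmic reticulum chaperones and the unfolded protein response, 0 were higher and 3 lower in d3 livers at an unadjusted p under 0.05, with a median of -0.14 and medians of -0.41 in AL males, -0.12 in CR males, 0.05 in AL females and -0.13 in CR females. Xbp1, the factor that drives the secretory programme, differed by -0.21 (SE 0.08, 95% interval -0.38 to -0.04). Calr, the lectin chaperone calreticulin, was 11389 to 46014 with a median of 23737 in the 20 WT livers, and 10609 to 33759.9 with a median of 19753 in the 20 d3 livers, and differed by -0.24 (SE 0.10, 95% interval -0.44 to -0.03), with -0.33 in AL males, -0.22 in CR males, -0.24 in AL females and -0.17 in CR females. Of 17 cytosolic heat shock genes, 0 were higher and 2 lower in d3 livers at an unadjusted p under 0.05, with a median of -0.14 and medians of -0.56 in AL males, -0.22 in CR males, 0.29 in AL females and -0.05 in CR females. Hsp90aa1, the inducible HSP90, differed by -0.34 (SE 0.16, 95% interval -0.66 to -0.01) and its co-chaperone Ahsa1 by -0.17 (SE 0.08, 95% interval -0.33 to -0.01). In the livers low in adipocyte transcripts Xbp1 differed by -0.17, Calr by -0.35, Hsp90aa1 by -0.47 and Ahsa1 by -0.22, and the medians of these lists were -0.17 and -0.23. Without AL males no gene of either list had an unadjusted p under 0.05. In AL males the mean log2 level of the exocrine pancreas markers reached 12.39 in WT livers and 1.57 in d3 livers. The part of pancreas transcripts in the chaperone values was not tested.

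Cholesterol synthesis genes had shared differences mostly below 0, none past an unadjusted p of 0.05. Of 22 measured, 0 were higher and 0 lower in d3 livers at an unadjusted p under 0.05, while 14 (63.6%, against 6.24% of all genes) were below 0 in all 4 strata. The median was -0.23, and -0.21 in the livers low in adipocyte transcripts. Genes of this list share 1 regulator, SREBP-2, and vary together between livers, so the counts of signs are not independent. Ebp, a sterol isomerase, was 4454 to 9533 with a median of 6813 in the 20 WT livers, and 4286 to 11343 with a median of 6207 in the 20 d3 livers, and differed by -0.17 (SE 0.08, 95% interval -0.34 to 0.0018). Stard4, a cholesterol transfer protein, differed by -0.34 (SE 0.18, 95% interval -0.71 to 0.02), with -0.62 in AL males, -0.16 in CR males, -0.33 in AL females and -0.25 in CR females. Ebp differed by -0.07 and Stard4 by -0.43 in the livers low in adipocyte transcripts.

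Other metabolic lists had median shared differences near 0. The median shared difference was -0.06 over 16 genes of de novo lipogenesis, -0.03 over 25 PPARA targets of fat oxidation and ketogenesis, 0.02 over 25 genes of glucose metabolism and 0.00077 over 31 genes of the urea cycle and amino acid breakdown. It was -0.06 over 73 cytosolic ribosomal protein genes and -0.04 over 68 nuclear genes of oxidative phosphorylation. Ribosomal protein genes had medians of -0.11 in AL males, -0.19 in CR males, -0.21 in AL females and 0.28 in CR females, so that a value near 0 averaged strata of opposite sign. No gene of these 6 lists had an unadjusted p under 0.05. Their medians ran from -0.12 to 0.11 in the livers low in adipocyte transcripts.

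Of 12 markers of Kupffer cells and other macrophages, 0 were higher and 0 lower in d3 livers at an unadjusted p under 0.05. Below 0 in all 4 strata were 9 of them (75%, against 6.24% of all genes), with a median of -0.23, and -0.06 in the livers low in adipocyte transcripts. The markers share cells, so the counts of signs are not independent. C1qb, a complement C1q chain made by macrophages, was 483 to 1367 with a median of 881 in the 20 WT livers, and 325 to 1279 with a median of 727 in the 20 d3 livers, and differed by -0.25 (SE 0.13, 95% interval -0.52 to 0.01). Clec4f, a Kupffer cell lectin, differed by -0.24 (SE 0.14, 95% interval -0.52 to 0.04). These were -0.11 and -0.05 in the livers low in adipocyte transcripts. Endothelial markers had a median of -0.05 over 10 genes, and stellate cell and fibroblast markers 0.03 over 9, or -0.07 and 0.07 in those livers.

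**Figure D5:**
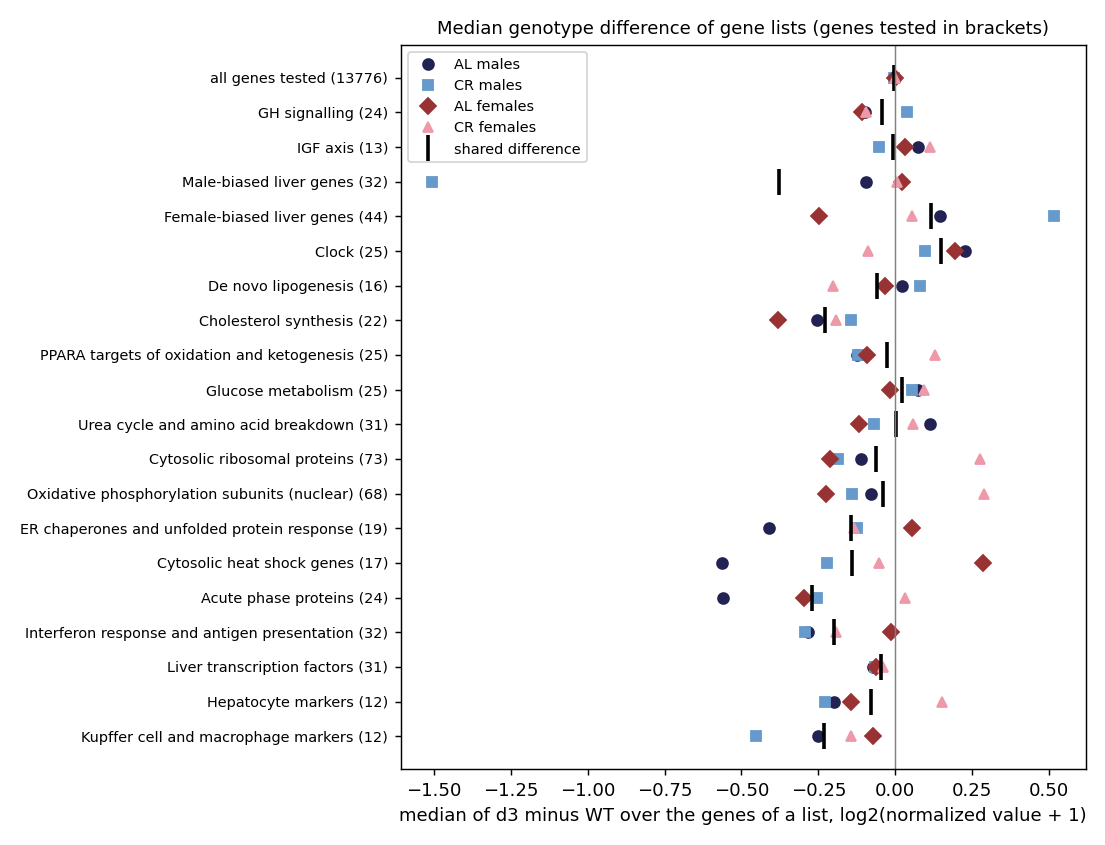
Median genotype difference (d3 minus WT, log2 scale, horizontal axis) over the tested genes of 19 lists and of all genes, in each stratum (symbols) and as the shared difference (tick). The male-biased list stands at -1.51 in CR males and near 0 in both female strata, and the liver transcription factors lie near 0 in all 4.

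Genes close to an engineered allele can be inherited together with it. Within 5 Mb of Ghr on chromosome 15, 17 other genes were tested and none was called. Of these, 2 were higher and 1 lower in d3 livers at an unadjusted p under 0.05, and the median was -0.01. Ccdc152 (chr15:3280070-3303526) differed by 0.27 (SE 0.10, 95% interval 0.07 to 0.46). It overlaps Selenop on the other strand, and whether the counting used strand is not given, so its level is uncertain. C6, a terminal complement component (chr15:4727175-4814967), differed by -0.39 (SE 0.16, 95% interval -0.72 to -0.07), with -1.80 in CR males and 0.04, 0.17 and 0.01 in AL males, AL females and CR females. Prkaa1, a catalytic subunit of AMPK, differed by 0.11 (SE 0.05, 95% interval 0.01 to 0.21), and Fbxo4, an F-box protein, by -0.10 (SE 0.05, 95% interval -0.21 to 0.0026).

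Whether the genotype difference varied between strata was tested directly. Genotype by sex was called for 0 genes (0%) by limma, with 1144 at an unadjusted p under 0.05, and genotype by diet for 0 genes (0%), with 690. By edgeR these counts were 0 and 0, and by DESeq2 21 and 6. An F test over all differences among the 4 strata called 6 genes (0.0436%) by limma. Cyp2b13, a female-biased cytochrome P450, had differences of -0.32 in AL males, 4.44 in CR males, -0.28 in AL females and -0.04 in CR females (adjusted p = 0.0408). Serpina1e, an alpha-1-antitrypsin gene of a near-identical family whose members share reads, had -0.21 in AL males, -3.87 in CR males, -0.0024 in AL females and 0.84 in CR females (adjusted p = 0.0408). Ciart, a repressor in the clock, had 2.52 in AL males, -0.41 in CR males, 0.49 in AL females and -0.29 in CR females (adjusted p = 0.0475). Tle3, a transcriptional corepressor, had -0.93 in AL males, 0.56 in CR males, 0.41 in AL females and -0.28 in CR females (adjusted p = 0.0408). Pias3, an inhibitor of STAT3, had 0.57 in AL males, 0.07 in CR males, 0.07 in AL females and -0.34 in CR females (adjusted p = 0.0475). The remaining 1 is a predicted gene. With each liver left out in turn, this count ran from 0 to 11, and it was 0 in 14 of the 40 cases and 11 without d3 CR female replicate 5.

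The 13 genes that DESeq2 called on the recovered reads were partly adrenal transcripts. Nr5a1 (adjusted p = 4.62e-09), Hsd3b1 (4.01e-05), Th (0.000114), Cyp21a1 (0.00833), Cyp11b1 (0.0166) and Cyp11a1 (0.0184) are all of the adrenal list. Also called were Scg2 (5.87e-07), Pla2g2f (0.00305) and Npy (0.00833). Scg2 is not of that list, and by limma it differed by 1.19 in AL males, 5.50 in CR males, 3.04 in AL females and 0.36 in CR females. Normalized values of Nr5a1 ran from 0 to 610.0 in WT livers and from 0 to 2286 in d3 livers, and 2 WT and 6 d3 livers had a high adrenal level. The rest of the 13 were Ephb2 (adjusted p = 0.0184), Serpina12 (0.0245), Cdkn1c (0.0387) and Serpina3k (0.0437), none of them of the adrenal list. Ephb2, a receptor tyrosine kinase for ephrin-B ligands, was 56.4 to 161 with a median of 97.4 in the 20 WT livers, and 46.4 to 269.7 with a median of 158 in the 20 d3 livers. It differed by 0.58 (SE 0.14, 95% interval 0.28 to 0.87) by limma, with 1.20 in AL males, 0.93 in CR males, 0.33 in AL females and -0.16 in CR females. Serpina3k, a secreted serpin, differed by -0.40 (SE 0.11, 95% interval -0.63 to -0.18) by limma, with -0.17 in AL males, -1.01 in CR males, -0.51 in AL females and 0.09 in CR females. In the livers low in adipocyte transcripts Ephb2 differed by 0.78 and Serpina3k by -0.35, and Nr5a1, Cyp11b1 and Cyp11a1 by 0.88, 1.75 and 1.42.

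With the adipocyte level as a covariate, an alternative chosen after the data were seen, limma called 2 genes. Prkd2, protein kinase D2, was 234 to 466 with a median of 319.9 in the 20 WT livers, and 212 to 375 with a median of 274 in the 20 d3 livers. It differed by -0.20 (SE 0.06, 95% interval -0.33 to -0.07) without the covariate and by -0.31 with it (limma adjusted p = 0.045). N4bp2l1 was 719 to 3576 with a median of 2085 in the 20 WT livers, and 1458 to 4435 with a median of 2479 in the 20 d3 livers. It differed by 0.32 (SE 0.11, 95% interval 0.09 to 0.55) without the covariate and by 0.52 with it, at the same adjusted p. Prkd2 differed by -0.24 and N4bp2l1 by 0.57 in the livers low in adipocyte transcripts. Neither was called without the covariate, nor by edgeR or DESeq2.

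The authors' deposited table tests d3 against WT in each stratum apart. In the authors' deposited table, 55 genes had an adjusted p under 0.05 in AL males, 34 in CR males, 1 in AL females and 3 in CR females. Of the 93 genes in the authors' deposited table called in any stratum, 0 were called in 2 or more. Fold changes had 1 sign in all 4 strata for 7 of the 93. Among all 13776 genes tested here, the limma differences were above 0 in all 4 strata for 1208 (8.77%). They were below 0 in all 4 for 860 (6.24%). The same count over all genes of the authors' deposited table was not made, so the 7 do not show likeness between strata.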

How the data were processed

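Liver RNA of 40 mice was sequenced. Per the submitters' processing notes, the tools included Trimmomatic, kallisto and DESeq2, beside FastQC and MultiQC for quality, and the build was GRCm38, with no versions or settings. The authors deposited 1 table of signal per gene, reads scaled by a factor per library. A deposited table of theirs also gives, stratum by stratum, the log2 fold change of d3 over WT and its adjusted p-value. In each library the low signal values are multiples of 1 step, and dividing by it returned whole reads (tolerance 0.01) for 100% of values, which edgeR and DESeq2 then used. Kallisto estimates the sharing of reads between near-identical transcripts.

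Of 17839 rows, 115 repeats were dropped. Genes with a mean value of at least 10 (13776) were tested with limma 3.58.1 in R 4.3.3 (8 group means, mean-variance trend) on log2(value + 1), which understates the change of low genes. All p-values and adjusted p in the text are limma's, Benjamini-Hochberg adjusted over the genes tested at 0.05, unless edgeR 4.0.16 or DESeq2 1.42.0 is named. The fit was tested on simulated data. Replicates were numbered in record order, so equal numbers do not pair livers.

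The members and gene lists were chosen with earlier results of these data known, and the list of adrenal gland genes and the adipocyte and adrenal alternatives after the data were seen. Named are Ghr, the 6 genes in each direction with the smallest p and 1 sign in 4 strata (predicted genes left out), up to 2 members of each list by p, up to 4 genes within 5 Mb of Ghr, and genes the text says were added. A gene that this rule names among the liver transcription factors is not reported here. Alternatives were a pseudocount of 10, no filter, a further scaling, library weights, an additive model, muscle, adipocyte, adrenal and running-number covariates, subsets of livers, and leaving out each liver or stratum.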

Additional observations from a re-analysis of the deposited data

Results flagged for a closer look

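In 18 of 104 groups of 5 livers, over Ghr and the 12 ranked genes, 1 liver stood apart from the other 4 by Dixon's test. Chance alone flags about 1 in 20 groups, and the genes share livers. Values are normalized. Cdkn1c had 95.5 as the highest value in WT AL males, beside 37.6 to 52.4 in the others and 297 as the highest value in WT CR females, beside 168 to 200.7 in the others. It also had 288 as the highest value in WT CR males, beside 103 to 142 in the others and 800.5 as the highest value in d3 AL females, beside 124 to 149.4 in the others. It also had 538 as the highest value in d3 CR females, beside 208 to 258 in the others. Osbpl5 had 153 as the highest value in WT AL males, beside 57.7 to 65.9 in the others. Arxes2 had 15.5 as the highest value in WT AL females, beside 0 to 3.33 in the others and 41.3 as the highest value in WT AL males, beside 0 to 3.60 in the others. It also had 92.8 as the highest value in WT CR females, beside 0 to 5.15 in the others and 160.2 as the highest value in WT CR males, beside 3.05 to 4.66 in the others. It also had 61.7 as the highest value in d3 AL females, beside 5.59 to 10.9 in the others and 236 as the highest value in d3 CR females, beside 4.20 to 28.7 in the others. Adh6-ps1 had 2978 as the highest value in WT AL males, beside 771 to 1149 in the others and 895 as the highest value in d3 AL males, beside 530.0 to 631 in the others. Denn2b had 332 as the lowest value in d3 CR females, beside 425 to 456 in the others. Olfr1034 had 112 as the highest value in d3 AL males, beside 56 to 66 in the others. Serpina12 had 318 as the highest value in WT CR males, beside 83.8 to 145 in the others. Ces3b had 29108 as the highest value in WT AL males, beside 14563 to 17438 in the others. The livers that stood highest for Arxes2 in the 4 WT groups are the 4 WT livers with an adipocyte level of 4 or more.

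The genotype difference itself varied between strata past the limma F test for 6 genes. Cyp2b13, Tle3 and Serpina1e had an adjusted p of 0.0408 each, and Ciart, Pias3 and a predicted gene one of 0.0475 each. Cyp2b13 differed by 4.44 in CR males and by -0.32 to -0.04 in the other 3 strata. Ciart differed by 2.52 in AL males and by 0.49 or less elsewhere.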

How the results depend on the processing

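The shared genotype difference was called for 0 genes in every setting run except 3. Library weights gave 3 (Retn, Arxes2 and Ptger3, all with 1 sign in the 4 strata), the adipocyte covariate 2 (both with 1 sign), and DESeq2 13 (11 with 1 sign). It was 0 whichever of the 40 livers was dropped, as was the count with 1 sign. With the running number as a covariate, 467 genes had an unadjusted p under 0.05 by limma, beside 967 without it. Genotype by sex was called for 92 genes with library weights and 21 with DESeq2, and genotype by diet for 4 and 6. With 1 liver left out both ran from 0 to 1. The F test between strata called 3 genes without the filter, 56 with library weights and 0 in the livers with a muscle level under 8. It called 2 with the running number or the adrenal level as a covariate. With 1 liver left out this count ran from 0 to 11. DESeq2 called 110 by a likelihood ratio test in place of the F test. The shared diet difference was called for 3528 genes with the running-number covariate and 3640 in the livers low in adipocyte transcripts, and from 6023 to 6455 with 1 liver left out. The shared sex difference was called for 1991 genes in the livers low in adipocyte transcripts and from 2966 to 3476 with 1 liver left out. The subsets hold fewer livers; the cause of the other shifts was not tested.

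Of 54 genes followed, the shared difference reversed for Igfbp5 (-0.11) and Myl1 (-1.49) with the adipocyte covariate, Myl1 (-0.0191) in the livers low in adipocyte transcripts, Jak2 with the running-number (-0.0156) or adipocyte covariate (-0.0552), Stat5b (-0.0031) and Cish (0.0024) with library weights, and Cyp2b13 (-0.22) and Cyp2a4 (-0.0271) without CR males. No paired analysis was possible because the labels give no replicate numbers. Groups of 5 limit the precision of each stratum difference, and the shared difference has a median SE of 0.09.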

Other observations

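Beyond the lists described, immediate early and glucocorticoid-responsive genes had a median shared difference of 0.08 over 24 genes, with 2 higher and 0 lower at an unadjusted p under 0.05. Genes of the ATF4 amino acid stress response had a median of 0.04 over 22 genes. Autophagy and lysosome genes had a median of -0.02 over 37 genes and proteasome subunits -0.04 over 28. Mitochondrial ribosomal protein genes had a median of -0.04 over 68, with 0 higher and 2 lower at an unadjusted p under 0.05. Without CR females 31 of the 68 were lower at that limit, with a median of -0.11, beside 1267 of all 13776 genes. Exocrine pancreas markers had a median of -0.45 over 9 genes, and of -2.38 in AL males. They reached a mean log2 level of 12.39 in 1 WT AL male, against at most 5.39 in a d3 liver.

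Cdkn1c (chr7:143458339-143461050) and Osbpl5 (chr7:143688762-143756985), both on the minus strand, lie close together in the imprinted part of mouse chromosome 7 and were both among the 6 higher genes with the smallest p. They were set side by side after their values were seen. In the livers with an adipocyte level under 4 their shared differences were 0.37 and 0.39, and in the livers with an adrenal level under 5 they were 0.40 and 0.46. With the adipocyte level as a covariate they were 0.37 and 0.20, and with the adrenal level 0.32 and 0.25. Neither was called in the limma fit of all 40 livers.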
